A study of Mus musculus with 6 samples.

Results

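Genes that mark neutrophils were followed in mouse liver. They were S100a8, S100a9, Ngp, Camp, Ltf, Mpo, Elane, Csf3r and Retnlg, chosen by name as genes of neutrophil granules, cytosol and surface, and all 9 were among the 22180 genes measured. RNA came from 3 MUTYH-null (Mutyh -/-) mice, numbered 3003, 3007 and 3008, which had developed liver tumors and whose tissue, by the study's text, was non-tumorous. It was set against RNA from 3 wild-type (Mutyh +/+) mice, numbered 1025, 1027 and 1001, without liver tumors. All were male, of C57BL/6 background, and received the HFHC + high iron diet (high fat, high carbohydrate and added iron) from an age of 8 weeks over 9 months. Values per mouse are given in the order 3003, 3007 and 3008 for MUTYH-null livers and 1025, 1027 and 1001 for wild-type livers. The null allele was inherited through the germline and so was not limited to one cell type, and genotype and the presence of tumors cannot be told apart. In whole tissue, fewer neutrophils and less RNA per neutrophil cannot be told apart either.

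Neutrophils are short-lived white cells that leave the bone marrow ready to kill microbes with proteins stored in granules. The granules are filled in sequence as the cell matures. Azurophil granules with MPO and elastase are made first, in promyelocytes, and specific granules with lactoferrin and cathelicidin follow. Mature cells have largely stopped making the RNA of the azurophil proteins but keep that of the calcium-binding proteins S100A8 and S100A9 and of the receptor for granulocyte colony-stimulating factor (G-CSF). In steatohepatitis, neutrophils are among the inflammatory cells that enter the liver lobule.

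None of the 9 genes passed the test as higher or lower in MUTYH-null liver. By limma, the unadjusted p was not under 0.05 for any of them, against 5.09% of all 22180 genes at that level, and the adjusted p lay between 0.977 and 0.999. The MUTYH-null and wild-type mice overlapped in all 9 genes, whereas the groups did not overlap in 9.53% of all genes. Differences below are log2 values, MUTYH-null minus wild-type. The difference was negative in 7 of the 9 genes and positive in 2, with a median of -0.06 log2, and over all genes 52.5% were negative with a median of -0.01 log2. With each mouse left out, the median of the 9 lay between -0.12 log2 (without wild-type mouse 1025) and -0.05 log2 (without wild-type mouse 1027), and it was -0.09 log2 without mouse 3008 or mouse 1001. No gene of the 9 differed by more than 0.5 log2, a size that 0.771% of all genes passed. Each of the 9 intervals (95%, limma) included 0.

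The signal of most of these genes was low. One probe set named each gene, and 7 of the 9 genes lay below the array's own median in all 6 mice. Elane was below it in 4 of 6 mice, and Csf3r was above it in every mouse. Signal where little RNA is expected in liver was described with 1408 olfactory, vomeronasal and taste receptor genes, a comparison added after the values were seen. Their probe sets had a median of 2.15 log2, with 4.45 log2 at the 95th percentile. The mean of 8 of the 9 neutrophil genes was within the 5th to 95th percentile of these receptor genes, and that of Csf3r was above it. The 8 lay in the upper part of that range, above 76.6% (S100a8) to 94.9% (Elane) of the receptor genes. Probe sets differ in how brightly they bind, so this does not order the genes by amount of RNA. At such a signal, a change in RNA may show as a smaller change in log2 value or not at all. Ly6g, the surface antigen most used to define mouse neutrophils, was 2.75, 3.01 and 2.67 log2 in MUTYH-null livers, against 2.67, 2.95 and 2.63 in wild-type livers, and was below the array median in all 6. Ly6g and these 8 genes were therefore at low signal in both groups, while Csf3r was not. Of 73 other neutrophil genes described below, 40 had a group mean above the median of all probe sets.

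**Figure D1:**
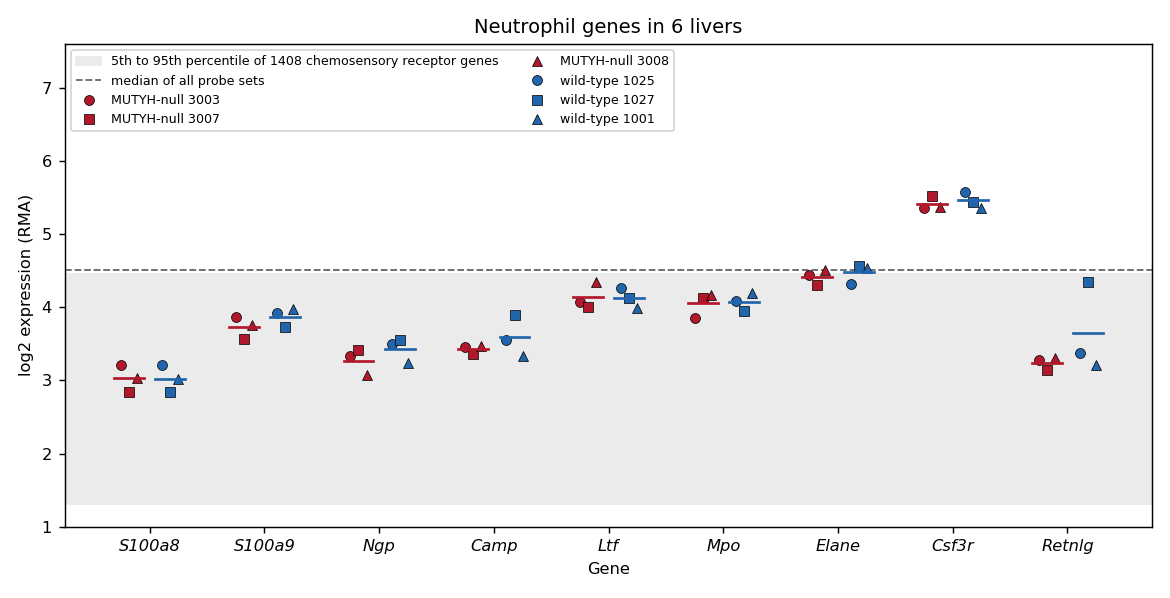
Log2 expression (vertical axis, RMA values) of the 9 genes in each mouse, MUTYH-null in red and wild-type in blue, with bars at the group means, a dashed line at the median of all probe sets and a grey band from the 5th to the 95th percentile of the chemosensory receptor genes. The groups overlap for every gene, Csf3r alone lies above the dashed line in every mouse, and Retnlg stands out in wild-type mouse 1027 at 4.34 log2.

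S100a8 and S100a9, which lie next to each other on chromosome 3, encode calcium-binding proteins that pair to form calprotectin, a major part of the neutrophil cytosol. S100a8 was 3.21, 2.84 and 3.03 log2 in MUTYH-null livers, against 3.21, 2.84 and 3.02 in wild-type livers. Each group thus had one mouse near each of the same values, and the difference was 0.01 log2 (standard error 0.13; interval -0.30 to 0.31). S100a9 was 3.86, 3.56 and 3.76 log2 in MUTYH-null livers, against 3.92, 3.73 and 3.97 in wild-type livers. Mouse 3007 was the lowest, and the highest MUTYH-null mouse lay between the wild-type values. The difference was -0.14 log2 (standard error 0.11; interval -0.41 to 0.12; exact permutation test, two-sided p = 0.3). It was -0.06 log2 when mouse 3007 was left out, -0.22 log2 without mouse 1027 and -0.09 log2 without mouse 1001. For 3 mice against 3, the smallest p of that test is 0.1.

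The 3 genes of the specific granules were all on chromosome 9. Camp encodes the cathelicidin from which the antimicrobial peptide CRAMP is cut, Ngp a granule protein related to it, and Ltf lactoferrin, an iron-binding protein. Between Camp and Ngp the annotation lists 8 protein-coding genes, and between Ngp and Ltf 20. Ngp was 3.33, 3.42 and 3.07 log2 in MUTYH-null livers, against 3.50, 3.55 and 3.24 in wild-type livers. Mouse 3008 was the lowest and mouse 1027 the highest. The difference was -0.16 log2 (standard error 0.13; interval -0.45 to 0.13), and it was -0.06 log2 without mouse 3008, -0.10 log2 without mouse 1027 and -0.25 log2 without mouse 1001. Camp was 3.46, 3.36 and 3.47 log2 in MUTYH-null livers, against 3.55, 3.90 and 3.33 in wild-type livers, so that mouse 1027 was again the highest and another wild-type mouse, 1001, the lowest. The difference of -0.16 log2 (standard error 0.14; interval -0.49 to 0.17) was -0.01 log2 without mouse 1027 and -0.29 log2 without mouse 1001. Ltf was 4.07, 4.00 and 4.34 log2 in MUTYH-null livers, against 4.26, 4.13 and 3.99 in wild-type livers. It was the only one of the 9 genes with its highest value in a MUTYH-null mouse, 3008, though for S100a8 mouse 3003 was only 0.0004 log2 below the highest. The difference of Ltf was 0.01 log2 (standard error 0.12; interval -0.27 to 0.29).

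Mpo and Elane, which encode the azurophil enzymes myeloperoxidase and neutrophil elastase, are RNA markers of immature granulocytes. Mpo was 3.86, 4.13 and 4.17 log2 in MUTYH-null livers, against 4.08, 3.95 and 4.20 in wild-type livers. Elane was 4.44, 4.31 and 4.51 log2 in MUTYH-null livers, against 4.32, 4.57 and 4.54 in wild-type livers. The 2 genes did not share their order of mice: mouse 3003 was the lowest for Mpo and mouse 3007 for Elane. The difference was -0.02 log2 for Mpo (standard error 0.12; interval -0.30 to 0.25) and -0.06 log2 for Elane (standard error 0.11; interval -0.30 to 0.19).

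Csf3r, for the G-CSF receptor through which granulocytes are produced and released, had the steadiest values, within 0.22 log2 over the 6 mice. It was 5.36, 5.52 and 5.37 log2 in MUTYH-null livers, against 5.58, 5.45 and 5.36 in wild-type livers. Both groups spanned nearly the same values, and the difference was -0.04 log2 (standard error 0.10; interval -0.27 to 0.18). The gene is on chromosome 4, as is Mutyh, with 134 protein-coding genes between them.

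Retnlg encodes resistin-like gamma, a small secreted protein made by mouse neutrophils and their marrow precursors. It was 3.28, 3.15 and 3.31 log2 in MUTYH-null livers, against 3.37, 4.34 and 3.22 in wild-type livers. Mouse 1027 lay 0.97 log2 above the next highest mouse, and the other 5 were within the range of 3.15 to 3.37 log2. The group means were 3.24 ± 0.08 log2 in MUTYH-null liver and 3.64 ± 0.61 log2 in wild-type liver (SD, n = 3 each). The difference of -0.40 log2 (standard error 0.26; interval -1.004 to 0.21) had an unadjusted limma p of 0.168 and an adjusted p of 0.977. Without mouse 1027 it was -0.05 log2. Without wild-type mouse 1001 it was -0.61 log2 at an unadjusted limma p of 0.0496, with mouse 1027 still in the group.

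**Figure D2:**
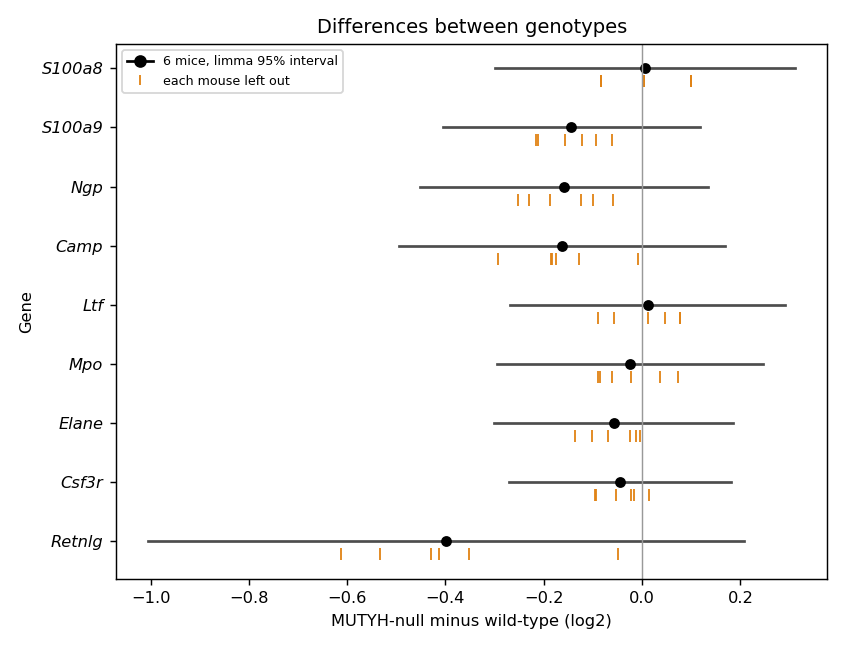
Difference of each gene between MUTYH-null and wild-type liver (horizontal axis, log2), with points for all 6 mice, lines for the 95% interval of limma and orange ticks for the difference with each mouse left out. All 9 lines cross 0, and the ticks of Retnlg run between -0.61 and -0.05 log2.

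For the 8 genes other than Retnlg, differences ran between -0.16 and 0.01 log2, and their intervals together spanned -0.49 to 0.31 log2, which is 0.71-fold to 1.24-fold of measured signal. These bounds hold for the signal of the probe sets and, given how dim most of them were, not for the amount of RNA.

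In 4 of the 9 genes the highest value belonged to wild-type mouse 1027, namely in Ngp, Camp, Elane and Retnlg. The count was 2 for wild-type mouse 1025, 2 for wild-type mouse 1001, 1 for mouse 3008 and 0 for mice 3003 and 3007. For S100a8, mouse 1025 was above mouse 3003 by only 0.0004 log2. In mouse 1027, Retnlg was 0.90 log2 above its mean over the 6 mice, Camp 0.39 log2 and Ngp 0.20 log2, while S100a8 was -0.18 log2 and Mpo -0.12 log2 from theirs. Averaged over the 9 genes, the deviation of mouse 1027 was 0.14 log2, and 0.04 log2 without Retnlg. The higher values were thus not shared by all 9 genes in that mouse. Of 73 other neutrophil genes described below, mouse 1027 was the highest in 7. For the 9 genes, the mean deviation was -0.04, -0.10 and -0.02 log2 in MUTYH-null livers. It was 0.06 log2 in wild-type mouse 1025 and -0.04 log2 in wild-type mouse 1001. For the 73 other genes it was 0.02, 0.03 and 0.01 log2 in MUTYH-null livers, against 0.04, 0.01 and -0.10 log2 in wild-type livers.

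**Figure D3:**
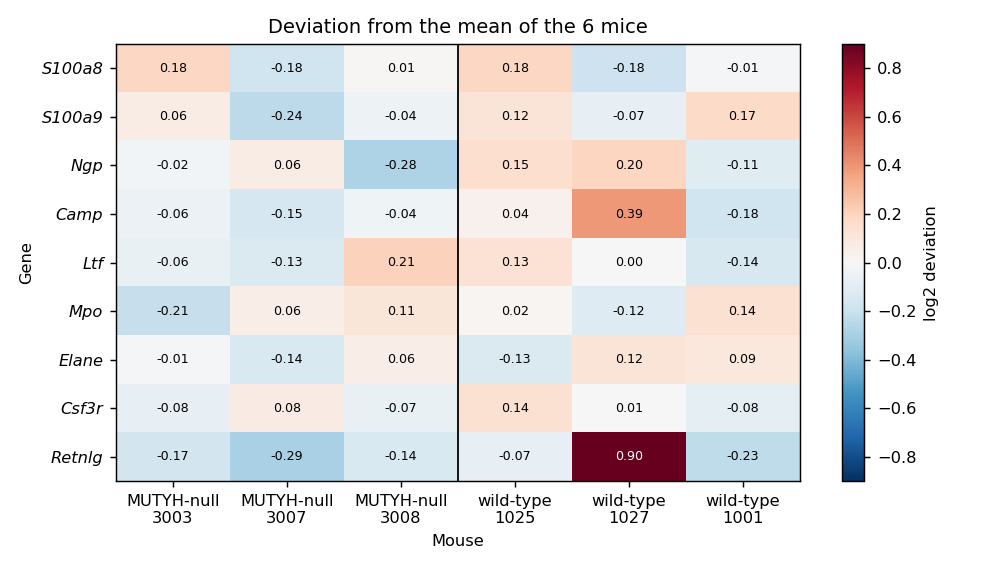
Deviation of each mouse (columns, MUTYH-null left of wild-type) from the mean of the 6 mice for each gene (rows), in log2, with red above and blue below the mean. The cell of Retnlg in wild-type mouse 1027, at 0.90, is far above the rest, and Camp follows in the same mouse at 0.39.

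Camp, Ngp and Retnlg were the 3 genes that stood farthest above their own means in mouse 1027. The 250 bases before the start site of each are printed here from the RefSeq promoter table (GRCm38.p6) to show what lies upstream of them; the array itself does not measure these stretches. They lie at chr9:109849457-109849706 (minus strand) for Camp, chr9:110419558-110419807 (plus strand) for Ngp and chr16:48872358-48872607 (plus strand) for Retnlg. Capitals mark matches, on either strand, to TTGCNNAA, a short form of the motif of the C/EBP factors that drive late granule genes.
Camp: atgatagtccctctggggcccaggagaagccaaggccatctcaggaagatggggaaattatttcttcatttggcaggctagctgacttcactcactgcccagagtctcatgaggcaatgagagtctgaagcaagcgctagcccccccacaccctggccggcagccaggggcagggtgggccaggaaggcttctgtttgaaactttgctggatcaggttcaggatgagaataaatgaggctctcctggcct
Ngp: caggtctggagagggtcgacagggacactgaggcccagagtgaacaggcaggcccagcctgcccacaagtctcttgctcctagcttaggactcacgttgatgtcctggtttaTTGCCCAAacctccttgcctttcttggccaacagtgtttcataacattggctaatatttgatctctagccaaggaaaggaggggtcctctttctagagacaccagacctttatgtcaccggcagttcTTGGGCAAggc
Retnlg: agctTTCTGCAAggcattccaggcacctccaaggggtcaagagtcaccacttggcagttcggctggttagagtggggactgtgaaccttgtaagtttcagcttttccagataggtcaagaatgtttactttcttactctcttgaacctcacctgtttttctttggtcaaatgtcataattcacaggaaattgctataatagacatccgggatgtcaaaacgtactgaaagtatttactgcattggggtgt

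Ngp held 2 matches, Retnlg 1 and Camp 0. Over all 9 genes, each of which had one entry in the promoter table, S100a9, Ngp, Ltf and Retnlg held a match, and of 32851 promoters of that length 9.56% did. The motif GAGGAA, the core bound by PU.1 and other ETS factors, was searched on both strands as well and was found upstream of S100a8, Ltf, Mpo, Elane and Csf3r, against 23.3% of all promoters. None of the 3 printed stretches held it. A match is a description of the letters and not a measured binding site.

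The wider set of neutrophil genes held 8 lists, by granule, cytosol, surface, oxidase, transcription factor, growth factor and S100 receptor. Beside the 9 genes, which are counted again in the lists they belong to, 73 further genes were measured. Of the 73, 3 were higher and 2 lower in MUTYH-null liver at an unadjusted p under 0.05 by limma, where 2.29% of all genes were higher and 2.8% lower. The groups did not overlap in 3 genes that were higher (Itgam, Ncf1 and Wfdc21) and 4 that were lower (Mmp8, Stfa2, Csf2 and Cxcl2), where 4.23% and 5.29% of all genes were so. No gene passed after adjustment, and neither did any other of the 22180. The median difference of the 73 genes was 0.05 log2, and -0.01 log2 without wild-type mouse 1001, which was the lowest of the 6 mice in 28 of them. With each mouse left out, 0 to 5 of the 73 were higher and 2 to 4 lower, and only Mmp8 and Stfa2 passed every time.

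Granule genes were read by granule type. Of 7 azurophil granule genes, Mpo and Elane included, none was higher or lower, and the median was -0.02 log2, or -0.085 to 0.0724 log2 with each mouse left out. Prtn3, for proteinase 3, had a difference of -0.12 log2 and Ctsg, for cathepsin G, 0.10 log2. Ctsc, for the protease that activates these enzymes and is also made by other cells, had 0.02 log2, and Ms4a3 had 0.07 log2. Of 12 specific and gelatinase granule genes, 1 was lower and none was higher, where 2.8% of all genes were lower and 2.29% higher. The median was -0.02 log2. The lower gene was Mmp8, neutrophil collagenase, at 3.21, 3.26 and 3.35 log2 in MUTYH-null livers, against 3.61, 3.66 and 3.49 in wild-type livers. All MUTYH-null values lay below the wild-type values, with a difference of -0.31 log2 (standard error 0.09; unadjusted p = 0.00931, adjusted p = 0.963, limma), and all 6 were below the array median. The brightest gene of the list, Lcn2, for the siderophore-binding protein lipocalin 2, which hepatocytes also make, had 0.23 log2 (standard error 0.15), Pglyrp1, for a peptidoglycan recognition protein, 0.17 log2 and Adam8, for a membrane protease, 0.20 log2, none past the threshold. Without wild-type mouse 1001 the difference of Adam8 was -0.01 log2, and without MUTYH-null mouse 3003 that of Lcn2 was 0.10 log2. The list was split into 6 positive and 6 negative differences, and on the negative side Olfm4, for olfactomedin 4, had -0.20 log2 and Itgb2l, for an integrin chain, -0.17 log2, neither past the threshold.

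Among 11 cytosolic and secreted genes, 2 were higher and 1 was lower, where 2.29% of all genes were higher and 2.8% lower. Wfdc21, of the whey acidic protein family, was 10.26, 10.18 and 10.22 log2 in MUTYH-null livers, against 9.89, 10.05 and 9.91 in wild-type livers. Which liver cells made the RNA of Wfdc21 was not tested. Its groups did not overlap, and the difference was 0.27 log2 (standard error 0.09; unadjusted p = 0.0154, adjusted p = 0.963, limma). Without wild-type mouse 1025 it was 0.24 log2 at an unadjusted limma p of 0.0512. Stfa1 and Stfa2, for stefin A inhibitors of cysteine proteases, pointed in opposite directions, with 0.42 log2 for Stfa1 (unadjusted p = 0.0423) and -0.41 log2 for Stfa2 (unadjusted p = 0.017) by limma. Both were under the array median in every mouse. Stfa1 no longer passed without mouse 3007 (0.37 log2), 3008 (0.28 log2), 1025 (0.35 log2) or 1027 (0.40 log2). The stefin A genes are near copies of one another, so that their probe sets may share RNA and these values are uncertain. Anxa1, for annexin A1, had 0.32 log2 (standard error 0.16) and Il1rn, for the interleukin-1 receptor antagonist, 0.01 log2, neither past the threshold.

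Of 19 surface receptor genes measured, 1 was higher and none lower, where 2.29% of all genes were higher and 2.8% lower. Differences were positive in 14 and negative in 5, where 52.5% of all genes were negative. Their median was 0.06 log2, but -0.0036 log2 without MUTYH-null mouse 3007 and -0.0042 log2 without wild-type mouse 1001. C5ar1, the receptor for complement fragment C5a, which macrophages also carry, was 5.21, 4.82 and 4.63 log2 in MUTYH-null livers, against 4.35, 4.67 and 4.44 in wild-type livers. The groups overlapped, since mouse 3008 was below mouse 1027, and the difference was 0.40 log2 (standard error 0.16; unadjusted p = 0.0363, adjusted p = 0.963, limma). C5ar1 no longer passed without mouse 3003 (0.24 log2), 3007 (0.43 log2), 1025 (0.33 log2) or 1001 (0.38 log2). Cxcr2, the receptor for chemokines that draw neutrophils, had 0.26 log2, Itgb2, the integrin chain shared by leukocytes, 0.12 log2, Selplg, the selectin ligand, 0.18 log2 and Ptafr, the receptor for platelet-activating factor, 0.01 log2, none past the threshold. The negative differences were those of Clec4e at -0.29 log2, Siglece at -0.22 log2, Fpr2 at -0.15 log2, Clec4d at -0.10 log2 and Csf3r at -0.04 log2, none past the threshold either.

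None of the 15 genes for neutrophil growth factors and chemokines and their receptor was higher or lower at an unadjusted p under 0.05. The groups did not overlap in 2 of them, Csf2 (-0.27 log2) and Cxcl2, both lower in MUTYH-null livers, where 5.29% of all genes were so. Csf3, which encodes G-CSF, had 0.19 log2 and Cxcl1, a chemokine for neutrophils, 0.37 log2 (standard error 0.26), with its highest value in MUTYH-null mouse 3003 at 6.67 log2. Without that mouse the difference of Cxcl1 was 0.05 log2. Cxcl2 had -0.16 log2 and Il1b -0.41 log2 (standard error 0.23). Without MUTYH-null mouse 3008 the difference of Il1b was -0.12 log2. Cxcl12, which holds neutrophils in the marrow, had 0.09 log2 and its receptor gene Cxcr4 0.00 log2. Of 7 granulocyte transcription factor genes none was higher or lower, with Cebpa at 0.13 log2, Spi1, which encodes PU.1, at 0.07 log2, Cebpe at -0.08 log2 and Gfi1 at 0.07 log2. The same held for the 5 genes for receptors of the S100A8 and S100A9 proteins and their partners, among them Tlr4 at 0.07 log2, Ly96 at 0.01 log2, Cd14 at 0.21 log2 and Cd33 at 0.08 log2. Without MUTYH-null mouse 3003 the difference of Cd14 was -0.0034 log2.

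The 6 genes of the phagocyte oxidase and of chromatin release had a median of 0.21 log2, the highest of the 8 lists, with none past the threshold. Cybb, the oxidase's catalytic chain, had 0.25 log2, Cyba 0.21 log2, Ncf1 0.21 log2 and Rac2 0.05 log2, while Padi4, an enzyme of chromatin release, had -0.08 log2. Without wild-type mouse 1001 the median was 0.10 log2. The same mouse was the lowest for the mean of 12 monocyte and macrophage markers, which was 7.11, 7.18 and 6.96 log2 in MUTYH-null livers, against 7.32, 7.06 and 6.72 in wild-type livers. Macrophages carry Cybb, Cyba and Ncf1 as well, and their part in these values was not tested.

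**Figure D4:**
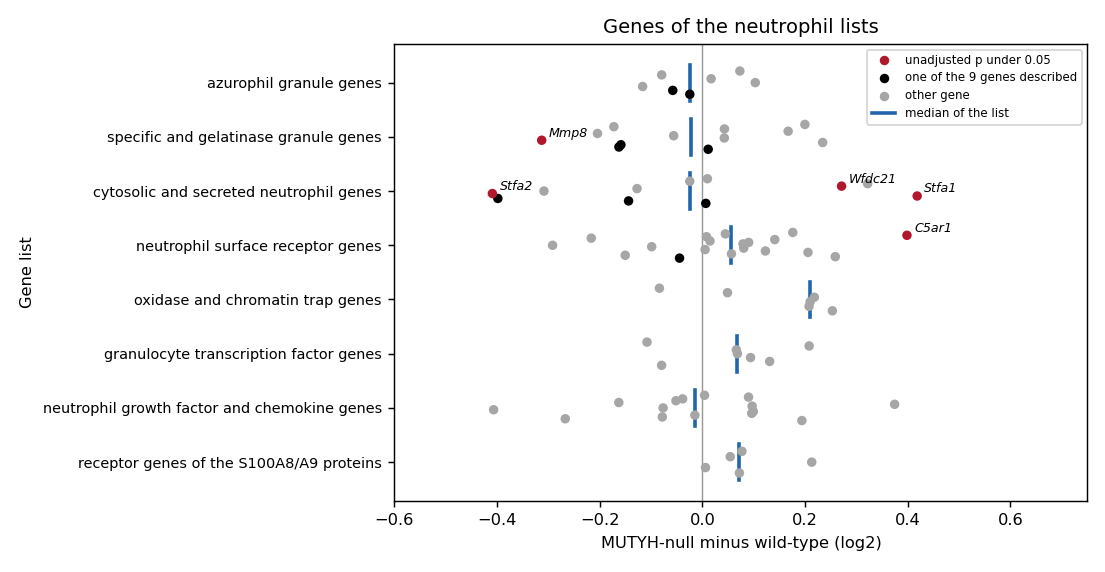
Difference between MUTYH-null and wild-type liver (horizontal axis, log2) for the genes of 8 neutrophil lists (rows), with blue bars at list medians, red points at an unadjusted p under 0.05 and black points for the 9 genes described. The 5 red points fall on both sides of 0, from Stfa2 at -0.41 to Stfa1 at 0.42 log2.

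Markers of other blood and liver cells were read beside these values. Over all genes, 2.29% were higher and 2.8% lower at an unadjusted p under 0.05 by limma. Of 6 eosinophil markers, Il5ra, the interleukin-5 receptor chain, was lower by limma at an unadjusted p of 0.00124 (adjusted p = 0.963). It was 2.97, 3.01 and 3.14 log2 in MUTYH-null livers, against 3.84, 3.91 and 3.41 in wild-type livers, without overlap and below the array median in all 6. Differences were negative in 5 of the 6 markers, where 52.5% of all genes were negative. The groups did not overlap in 2, Il5ra and Prg3, both lower in MUTYH-null livers, where 5.29% of all genes were so. None of the 6 markers was above the median signal. Prg3, for a granule protein, had -0.16 log2, Siglecf -0.08 log2, Prg2 -0.01 log2, Ccr3 -0.0011 log2 and Epx, eosinophil peroxidase, 0.00 log2. Among 7 mast cell and basophil markers and 5 blood progenitor markers, no gene passed. None of 6 T cell markers passed either, but 5 of the 6 differences were positive and their median was 0.24 log2, above that of each neutrophil list. This order did not hold with every mouse left out. The median was 0.13 log2 against 0.24 log2 for the oxidase list without mouse 1025, and 0.17 against 0.21 log2 without mouse 3008. The mean of the T cell markers was 4.47, 4.80 and 4.78 log2 in MUTYH-null livers, against 4.30, 4.57 and 4.53 in wild-type livers, and the groups overlapped. No gene passed among 7 B and plasma cell markers, all with positive differences, whose mean was 4.32, 4.37 and 5.27 log2 in MUTYH-null livers, against 4.27, 4.35 and 4.18 in wild-type livers, with mouse 3008 far above the rest. Of 6 platelet markers Pf4, platelet factor 4, was higher by limma, at 0.53 log2 and an unadjusted p of 0.0116 (adjusted p = 0.963). Of 7 erythroid markers Ermap was higher by limma, at 0.32 log2 and an unadjusted p of 0.0256 (adjusted p = 0.963), and it no longer passed without mouse 3007 (0.22 log2) or 1001 (0.25 log2). The erythroid differences were positive in 3 markers and negative in 4, with a median of -0.04 log2. Marco, a scavenger receptor gene of macrophages, was lower by limma, at -0.38 log2 (unadjusted p = 0.0062), and was the only monocyte or macrophage marker past the threshold. Differences in its list were positive in 7 markers and negative in 5, with a median of 0.08 log2. The 11 hepatocyte markers measured were all above the median signal, with Alb at 13.15 to 13.24 log2, and their median difference was 0.00 log2.

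The genes whose pattern over the 6 mice was most like the mean of the 9 neutrophil genes were named from 13232 genes above the median signal. By Pearson's r they were the steroid hydroxylase gene Cyp17a1 (r = 0.98, Spearman's rho = 0.83), Rilpl1 (r = 0.98, rho = 0.83), Pex5l (r = 0.98, rho = 1), the histone demethylase gene Kdm6b (r = 0.97, rho = 0.83) and Snx4 (r = 0.97, rho = 0.94). Each was the highest in wild-type mouse 1027. These 5 genes are the extremes of many correlations over few mice, so no p is given. All 5 had negative differences, from -0.79 log2 for Cyp17a1 to -0.05 log2 for Snx4. This sign and the shared top mouse follow largely from how the genes were picked. The mean of the 9 genes was itself lower on average in MUTYH-null livers. It was also the highest in mouse 1027, with a deviation of 0.14 log2. Without Retnlg that deviation was 0.04 log2, against 0.08 log2 in wild-type mouse 1025. Whether the 5 genes follow the mean without Retnlg was not tested. Over the 4 mice left without mice 1027 and 1025, r was 0.92 for Cyp17a1, 0.89 for Rilpl1, 0.95 for Pex5l, 0.82 for Kdm6b and 0.67 for Snx4. Over deviations from the group means, r was 0.98 for Cyp17a1, 0.96 for Rilpl1, 0.95 for Pex5l, 0.96 for Kdm6b and 0.97 for Snx4, although 0 of these 5 were among the 5 most alike by that measure. None is a neutrophil gene of the lists used.

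Arrays differed little as a whole. Their medians lay between 4.51 and 4.55 log2, and the correlation of 2 arrays over the probe sets (Pearson's r) was 0.983 to 0.985 for mice of one genotype and 0.982 to 0.985 for mice of different genotype. The probe set that names Mutyh was 4.43, 4.65 and 4.34 log2 in MUTYH-null livers, against 4.44, 4.36 and 4.48 in wild-type livers, so it does not check the genotype labels. The number of arrays limits the precision.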

How the data were processed

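Liver RNA of 6 mice was hybridized to 1 Affymetrix array each. The deposited log2 values were made by the authors by Robust Multi-Array Average (RMA), in Bioconductor by the paper's methods. Tools listed with the samples are Affymetrix Expression Console and, separately, the Transcriptome Analysis Console. A human array is named in the methods, but the genes of the probe table are those of the mouse. RMA corrects the background of each array, brings all arrays to one distribution and narrows differences of dim probe sets. Of 41345 probe sets, 23521 named exactly 1 gene, and each gene took its probe set with the highest mean, with no filter on dim genes.

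Groups were compared with limma 3.58.1 (lmFit and eBayes) in R 4.3.3, with Benjamini-Hochberg adjustment over all 22180 genes, and called at an unadjusted p under 0.05. The fit was tested on simulated data whose shifts were larger than any difference of the 9 genes. That test does not show how well smaller shifts in dim probe sets are found. Exact two-sided permutation tests were added. The labels give each mouse as a separate animal and no batch. The genes, lists and tests were chosen with earlier results of these data known. Named were the 9 genes, list genes past the threshold, bright or widely different list genes, and the 5 genes most like the 9; other list genes were named after their values were seen. The mouse gene table (GRCm38.p6) matched 21994 of the genes.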

Additional observations from a re-analysis of the deposited data

How the results depend on the processing

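The 6 alternatives that kept all mice were leaving out dim genes, quantile normalizing again, centering arrays, averaging probe sets, a robust variance trend and array weights. None brought any of the 9 genes past an unadjusted p of 0.05, and no gene of the whole array passed an adjusted p under 0.05 in any of them. Without dim genes, 13233 genes and only 1 of the 9, Csf3r, were left, no median over the 9 could be given, and 668 genes had an unadjusted p under 0.05 instead of 1129, since fewer were tested. With array weights the difference of Ltf turned to -0.01 log2 (-0.0079). Leaving out each mouse turned the sign in 7 of 54 cases. The range was -0.0842 to 0.10 log2 for S100a8, -0.0903 to 0.078 for Ltf, -0.0891 to 0.0724 for Mpo and -0.10 to 0.0142 for Csf3r, and S100a9, Ngp, Camp, Elane and Retnlg kept a negative sign in every setting that gave them a value. The count of the 9 genes at that level lay between 0 and 1, the 1 being Retnlg without wild-type mouse 1001. No paired analysis was possible because the mice of the 2 groups share no numbers. Each of the 9 genes had 1 probe set, so no other could be tried. Dim signal limits what 3 mice per group can show.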
